A study of Ovis aries with 15 samples.

Results

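The SLC25 family is the largest group of solute carriers of the mitochondrion. Its members sit mostly in the inner membrane, where each exchanges or imports a small set of metabolites: ADP for ATP, phosphate, di- and tricarboxylates, amino acids, acylcarnitines, cofactors, nucleotides and iron. The kidney tubule depends on oxidative metabolism for ion transport, and the liver uses several carriers of the family for the urea cycle, the malate-aspartate shuttle and fatty acid oxidation. The members described here are all rows of the deposited expression table whose gene name starts with SLC25A. There were 45 such rows among 25592 genes, and the rule took every row by its name. SLC25A2, SLC25A18, SLC25A31 and SLC25A52 were not analysed here.

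The libraries were RNA-seq of kidney from male crossbred (Dorper × Small-tailed Han) sheep a few months old, with 5 libraries in each of 3 groups. The CON group ate a total mixed ration, the AFB1 group ate that ration with aflatoxin B1 (AFB1, a mould toxin), and the AFB1_CUR group ate it with AFB1 and curcumin (CUR, a plant polyphenol). All animals shared the ration, breed, sex and age, and the libraries were made from bulk tissue. Fewer cells of a type and less RNA per cell therefore cannot be told apart. The total count per library was 50255295 to 68747047 (median 56549141). The p-values set group differences against the spread between these libraries. The paper states that animals shared pens, which the labels do not give and the fits leave out.

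The library labelled AFB1 replicate 1 stood apart from the other 14 and went against its tissue label. The 20 hepatocyte markers summed to 61300 FPKM (fragments per kilobase of gene length, scaled to library size) in it and to 177 to 489 FPKM in the others. The 9 proximal tubule markers in the table summed to 17.3 FPKM in it and to 1100 to 3040 FPKM in the others. Group values below leave this library out (n = 5, 4 and 5), and values from the fit with all 15 libraries are given beside them where a call changes. AFB1 replicate 2 had the highest adipocyte marker sum of the 14 (63.7 FPKM, others 0.267 to 6.77). FABP4 alone was 62.8 FPKM of it, CIDEC at 0.356 FPKM was also above the other 13 libraries, and ADIPOQ (0.0381 FPKM), PLIN1 (0.319 FPKM) and UCP1 (0.112 FPKM) lay within their range. AFB1_CUR replicate 2 had the highest lymphocyte sum (201 FPKM, others 9.17 to 102) and the lowest proximal tubule sum.

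The family took a nearly constant share of the kidney transcriptome. In the 14 libraries its summed level was 1790 to 2410 FPKM (median 2220), or 0.44% to 0.538% of all FPKM. The 5 most abundant rows made up 61.1% to 70.4% of that sum. They were the ADP/ATP carriers SLC25A4, SLC25A6, SLC25A6_1 and SLC25A5, which exchange cytosolic ADP for mitochondrial ATP, and SLC25A3, the phosphate carrier that supplies ATP synthase. By median FPKM, 7 members were at 100 or over, 15 at 10 to under 100, 19 at 1 to under 10 and 4 under 1.

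SLC25A4 (ANT1, the muscle-type isoform in textbooks) had the highest median level, 346 FPKM (range 234 to 469). Its FPKM was 344 ± 39.4 (SD, n = 5) in CON, 347 ± 52.2 (SD, n = 4) in AFB1 and 346 ± 88.2 (SD, n = 5) in AFB1_CUR. SLC25A6 (ANT3) followed at a median of 330 FPKM (253 to 415), and the ranges of these neighbours in the order overlapped. SLC25A6 has 2 rows, on chromosome X from 6640595 to 6644670 and, as SLC25A6_1, on chromosome Y from 757533 to 761608. The second row was at 0.764 to 0.838 times the first in the 14 libraries. The rows carry the same gene name and imply the same length (0.968 kb), and their sequences were not compared here. If they share reads, how these were split is uncertain, so their values are not counted as separate evidence. SLC25A5 (ANT2) was at 238 FPKM (137 to 354) and SLC25A3 at 233 FPKM (189 to 271). SLC25A3 was also the most even member, with a coefficient of variation of 9.29% over the 14 libraries, against a median of 18.8% for the 42 tested members and 20.3% for all tested genes.

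After them came carriers of carboxylates and of iron or glutathione. SLC25A1, which exports citrate for lipid synthesis, was at 114 FPKM (66.7 to 158), and SLC25A10, the dicarboxylate carrier, at 106 FPKM (68 to 152). SLC25A39, a mitochondrial glutathione importer, was at 87.7 FPKM (68 to 101). SLC25A11, the oxoglutarate/malate carrier of the malate-aspartate shuttle, was at 51.3 FPKM (38.9 to 66.6) and SLC25A15, the ornithine carrier, at 40.1 FPKM (18.2 to 66.4). SLC25A11 and SLC25A15 overlapped in range, as did SLC25A1, SLC25A10 and SLC25A39, whereas SLC25A3 and SLC25A1 did not, nor did SLC25A39 and SLC25A11.

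The middle of the order held the remaining roles. SLC25A34, with no assigned substrate, was at 35.3 FPKM (12.4 to 71.7) and SLC25A20, the carnitine/acylcarnitine carrier, at 24.4 FPKM (14.5 to 54.5), both among the most variable members with coefficients of variation of 42% and 40.6%. Among the cofactor carriers the highest was SLC25A17 at 22.5 FPKM and the lowest SLC25A32, a folate and FAD carrier, at 1.53 FPKM. SLC25A51, the NAD carrier, was at 2.6 FPKM (2 to 3.54). SLC25A21, which carries oxodicarboxylates, was the lowest of the carboxylate and amino acid carriers at 3.05 FPKM (1.9 to 4.53). SLC25A41, the lowest of the phosphate and adenine nucleotide carriers at 1.03 FPKM (0.605 to 1.7), shares 1281 bases with SLC25A23 on the same strand and 3532 bases with LOC105609861 on the opposite one. Reads in those bases could be counted for either gene.

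At the low end, SLC25A27 (UCP4, an uncoupling protein-like carrier known from brain) had a median of 0.89 FPKM, SLC25A47 0.845 FPKM, SLC25A40 0.412 FPKM and SLC25A48 0.054 FPKM. SLC25A40, the paralogue of SLC25A39, was the single member under 1 FPKM in each of the 14 libraries. SLC25A39 stood at 142 to 388 times SLC25A40 there. The deposited FPKM divides each count by a fixed length per row, and the length that count and FPKM imply together was 36.1 kb for SLC25A40, 15.4 kb for SLC25A51 and 12.5 kb for SLC25A27, against a median of 3.26 kb over members. SLC25A40 also overlaps LOC101112460 on the opposite strand over 52355 bases. Its place in the order may depend on how the row was defined, which was not tested. None of the members was at 0 in any library.

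**Figure D1:**
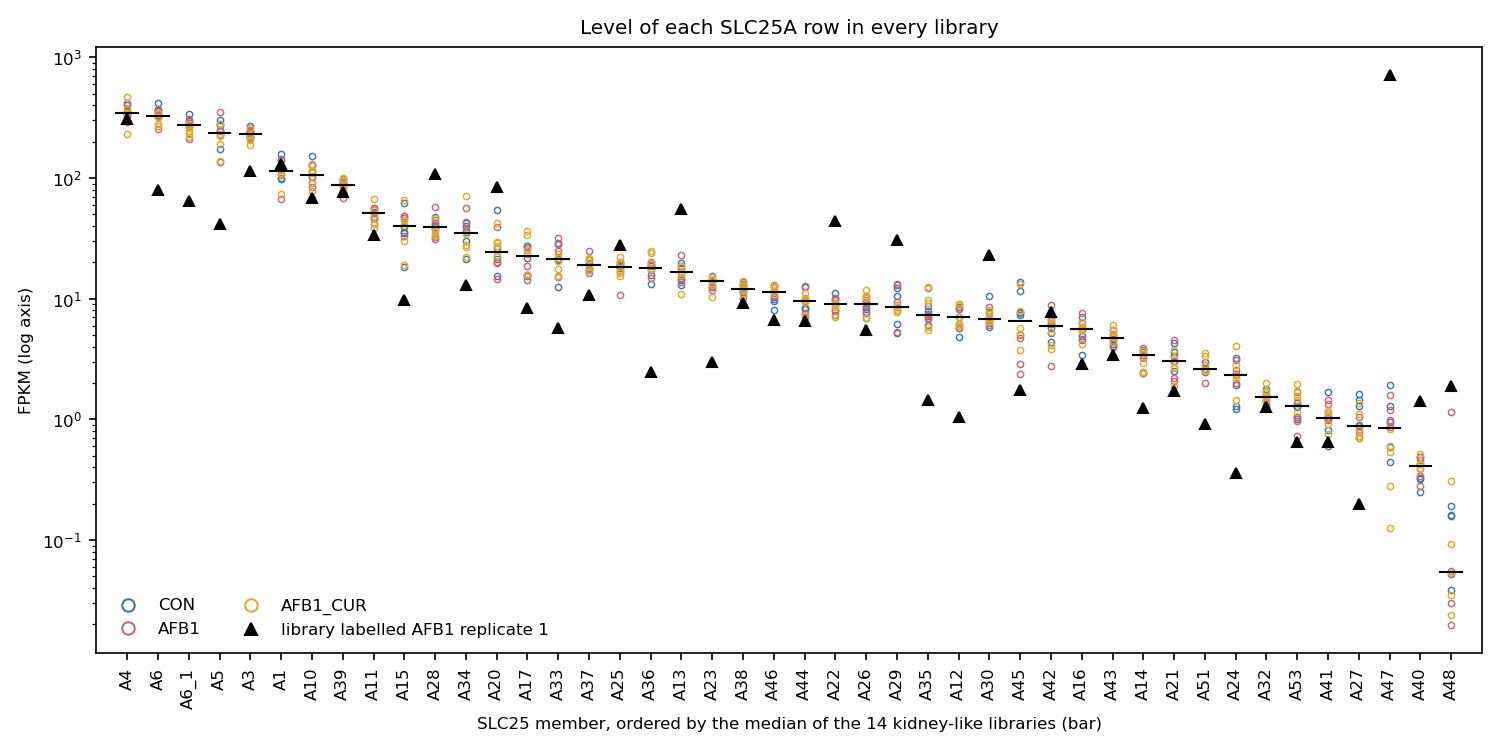
FPKM of 44 of the 45 SLC25A rows in every library on a log axis; circles are the 14 libraries coloured by group, bars their median, and triangles the library labelled AFB1 replicate 1. The rows run from SLC25A4 at a median of 346 FPKM to SLC25A48 at 0.054 FPKM, and the triangle of SLC25A47 lies at 721 FPKM against a highest circle of 1.92 FPKM.

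The ratio within isoform pairs differed widely between pairs, and that of SLC25A39 to SLC25A40, given above, was the highest. For the aspartate/glutamate carriers, SLC25A13 (citrin, or AGC2) was at 1.21 to 4.01 times SLC25A12 (AGC1), with a median of 2.3. For the mitoferrins, which import iron for heme and iron-sulfur clusters, SLC25A28 was at 1.61 to 2.55 times SLC25A37. SLC25A4 was at 0.934 to 3.03 times SLC25A5. The mean ratio of SLC25A4 to SLC25A5 was 1.41 ± 0.427 (SD, n = 5) in CON, 1.67 ± 0.942 (SD, n = 4) in AFB1 and 1.67 ± 0.472 (SD, n = 5) in AFB1_CUR. The group ranges of these 3 ratios overlapped in every pair of groups.

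The first comparison asked whether the toxin changed the carriers in kidney, AFB1 (n = 4) against CON (n = 5). SLC25A45 was lower in the AFB1 group, and it was the single member called. The 42 members that had at least 1 FPKM in at least 5 of the 14 libraries were tested among 13162 genes with edgeR's quasi-likelihood test. To be called, a gene had to change by more than 1.5-fold with p under 0.05 before adjustment. Of the 42 members, 0 were called higher and 1 lower, where 0.653% and 1.11% of all tested genes were called higher and lower. After Benjamini-Hochberg adjustment over all genes, 0 genes passed 0.05 in any of the 3 comparisons with edgeR. Unadjusted p was under 0.05 for 664 genes here, 303 in AFB1_CUR against AFB1 and 723 in AFB1_CUR against CON. DESeq2 passed 22, 3 and 1 genes after adjustment, of which 0 were members.

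SLC25A45 (chromosome 21, 40013978 to 40019832, minus strand) encodes an inner membrane carrier reported to bring in methylated basic amino acids such as trimethyllysine, the starting point of carnitine synthesis. In the CON group it was at 11.5, 7.65, 7.32, 13.7 and 7.83 FPKM. In AFB1 replicates 2 to 5 it was at 2.38, 5.02, 2.9 and 4.69 FPKM. In the AFB1_CUR group it was at 13.2, 3.73, 7.93, 5.77 and 5.06 FPKM. Every one of the 4 AFB1 libraries was below every CON library, while the AFB1_CUR values spanned both groups. The library labelled AFB1 replicate 1, left out here for its hepatocyte markers, was at 1.75 FPKM. This was below the other 14 as deposited but not after TMM scaling, which sets the bulk of genes level.

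The group levels of SLC25A45 were 9.6 ± 2.85 FPKM (SD, n = 5) in CON, 3.75 ± 1.3 FPKM (SD, n = 4) in AFB1 and 7.14 ± 3.73 FPKM (SD, n = 5) in AFB1_CUR. In AFB1 against CON its log2 fold change was -1.35 (SE 0.39, edgeR unadjusted p = 0.00394, adjusted p = 0.957). It was a candidate by the unadjusted threshold and did not pass adjustment. A two-sided exact permutation test of log2 FPKM gave p = 0.0159, the smallest that 4 libraries against 5 allow. Separation of the groups without overlap was found for 1.54% of all tested genes and for 1 of the 42 members. SLC25A45 was also the most variable of the tested members, with a coefficient of variation of 51.2% over the 14 libraries. With all 15 libraries in the fit its log2 fold change was -1.43 (edgeR adjusted p = 0.596). The call held in all 23 alternative fits, at -1.54 to -1.15.

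The proximal tubule marker sum of the same libraries, in the same order, was 1920, 1560, 1710, 2600 and 2990 FPKM in CON, 1430, 1590, 1170 and 3040 FPKM in AFB1, and 2510, 1100, 1770, 2020 and 1910 FPKM in AFB1_CUR. The lowest SLC25A45 value came from AFB1 replicate 2, which had the high FABP4 level and, after AFB1_CUR replicate 2, the highest lymphocyte (102 FPKM) and adrenal cortex (5.74 FPKM) marker sums of the 14. The lowest AFB1_CUR value came from AFB1_CUR replicate 2, where these sums were 201 and 15.7 FPKM. Without both libraries the log2 fold change was -1.15 (edgeR unadjusted p = 0.00687, adjusted p = 0.81). The part of tissue make-up in the difference was not tested. Of the enzymes of carnitine synthesis, TMLHE and BBOX1 were examined and not called. TMLHE, which hydroxylates trimethyllysine, was at 11.2 ± 2.35 FPKM (SD, n = 5) in CON and 10.4 ± 1.96 FPKM (SD, n = 4) in AFB1. BBOX1, the last enzyme of the pathway, was at 57.7 ± 17.1 FPKM (SD, n = 5) in CON and 47.8 ± 15.6 FPKM (SD, n = 4) in AFB1.

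SLC25A27 was the other member with an unadjusted p under 0.05 in AFB1 against CON, which was 2 of 42 members beside 5.04% of all tested genes, so the family as a whole was near the background. SLC25A27 was at 0.892, 1.63, 1.29, 0.884 and 1.46 FPKM in CON and at 1.04, 0.888, 0.705 and 0.785 FPKM in AFB1 replicates 2 to 5. The groups overlapped, since the lowest CON libraries lay within the AFB1 range. Its log2 fold change was -0.53 (SE 0.23, edgeR unadjusted p = 0.0414, adjusted p = 0.957), under the 1.5-fold threshold. With all 15 libraries it was -0.71 (unadjusted p = 0.0266, edgeR adjusted p = 0.596) and was called, as 1.01% of all genes were called lower in that fit. The library added there, labelled AFB1 replicate 1, was at 0.2 FPKM, below the range of the other 14 (0.697 to 1.63 FPKM). SLC25A27 was also called without CON replicate 1, CON replicate 4 or AFB1 replicate 2.

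The other 40 tested members lay close to no change. Over the 42, log2 fold changes ran from -1.35 to 0.33 with a median of 0.00, beside 0.02 for all genes, and 41 were under 1.5-fold, beside 94.1% of all genes. By role, the 9 carriers of phosphate and adenine nucleotides had a median log2 fold change of -0.06 (-0.17 to 0.33), the 11 of carboxylates and amino acids -0.01 (-0.28 to 0.26) and the 9 of cofactors and other nucleotides 0.07 (-0.20 to 0.23). The 3 uncoupling protein-like carriers ran from -0.53 to -0.05 and the 3 tested carriers of iron and glutathione from -0.01 to 0.04. None of these 5 classes held a called member. SLC25A20, which carries acylcarnitines in for β-oxidation, had a log2 fold change of -0.24 (SE 0.38) with CON libraries from 15.5 to 54.5 FPKM, and its sign turned with all 15 libraries (0.71, SE 0.56), where it was not called. SLC25A22 (from -0.11 to 1.17) and SLC25A30 (from -0.10 to 0.82) were among the others that turned. SLC25A47, not in the 14-library fit, was called higher at 7.84 (edgeR adjusted p = 0.596) with all 15 libraries, as were 3.84% of all genes. It passed the level filter only through the library labelled AFB1 replicate 1, where it was at 721 FPKM, so this call rests on that library. Without that library, in a fit with no level filter, its log2 fold change was 0.17 (SE 0.49).

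The second comparison asked what curcumin changed in toxin-fed sheep, AFB1_CUR (n = 5) against AFB1 (n = 4). SLC25A45 was again the single called member, here higher. Its log2 fold change was 0.88 (SE 0.39, edgeR unadjusted p = 0.0398, adjusted p = 1). This comparison shares the AFB1 libraries with the first, so the opposite directions are not separate evidence. Called higher were 0.41% and called lower 0.524% of all tested genes, and 2.3% had an unadjusted p under 0.05. The groups overlapped for SLC25A45, as they did for all 42 tested members, where 0.676% of all genes separated.

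The fold change of SLC25A45 was above 0 in all 23 alternative fits (0.50 to 1.07), and its call was lost in 6 of them. Without AFB1_CUR replicate 1, at 13.2 FPKM the highest of its group, the log2 fold change was 0.50 (unadjusted p = 0.156 with edgeR). With the replicate number as a block, although labels do not pair the numbers, it was 0.59 (edgeR unadjusted p = 0.0767). The call was also lost with the compared groups fitted alone (0.88, edgeR unadjusted p = 0.0607), and without AFB1 replicate 2 (0.69), AFB1 replicate 4 (0.78) or AFB1_CUR replicate 3 (0.84). The exact permutation test gave p = 0.0794. With all 15 libraries it was 0.96 (edgeR adjusted p = 0.785) and the call was kept.

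Over the 42 members, log2 fold changes in AFB1_CUR against AFB1 ran from -0.43 to 0.88 (median -0.06, all genes 0.00), and 41 were under 1.5-fold beside 96.2% of all genes. The members at the ends were SLC25A33, a pyrimidine nucleotide carrier (-0.43, SE 0.27), and, after SLC25A45, SLC25A17, a peroxisomal cofactor carrier (0.46, SE 0.29). SLC25A17 was at 18.7 ± 5.45 FPKM (SD, n = 4) in AFB1 and 26.9 ± 8.3 FPKM (SD, n = 5) in AFB1_CUR. SLC25A17 was called without AFB1 replicate 4 (0.68) or AFB1_CUR replicate 5 (0.61), and SLC25A33 (-0.63) and SLC25A53 (0.66), which has no assigned substrate, without AFB1 replicate 2.

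With the library labelled AFB1 replicate 1 in the fit, 6 members were called in AFB1_CUR against AFB1, and 5 of them were lower. Of all genes in that fit, 0.591% were called higher and 3.39% lower. SLC25A47 led with a log2 fold change of -8.97 (edgeR adjusted p = 0.785), but it reached 1 FPKM in 4 of the other 14 libraries and so passed the level filter only with that library. It was followed by SLC25A22 (-1.38), SLC25A29 (-1.12), SLC25A13 (-1.08) and SLC25A28 (-0.93). These 5 were among the members that were higher in that library than in any other. Without it SLC25A22, SLC25A29, SLC25A13 and SLC25A28 were not called, at log2 fold changes of -0.10, -0.20, -0.23 and -0.21. Their AFB1 means of 5 libraries therefore rested on that library.

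The third comparison was AFB1_CUR (n = 5) against CON (n = 5). It called 0 of the 42 members, where 1.05% of all tested genes were called higher and 0.577% lower. SLC25A45 had a log2 fold change of -0.48 (SE 0.36), and its ranges overlapped. Without AFB1_CUR replicate 1 it was called at -0.85 (edgeR unadjusted p = 0.0192), as was SLC25A27 at -0.63. In that fit 125 of 13089 genes were called lower. With the replicate number as a block SLC25A45 was called at -0.62 (edgeR unadjusted p = 0.0441), where 97 of 13162 genes were called lower. Both SLC25A6 rows had an unadjusted p under 0.05 at less than 1.5-fold, which was 2 of 42 beside 5.49% of all genes. SLC25A6 was at 415, 369, 319, 361 and 334 FPKM in CON and at 279, 322, 270, 321 and 348 FPKM in AFB1_CUR. The AFB1_CUR libraries tended to lie in the lower part of the CON range or below it, and the groups overlapped. The log2 fold change was -0.30 (SE 0.12, edgeR unadjusted p = 0.0262, adjusted p = 0.823), and for SLC25A6_1, which may share the same reads, -0.32 (SE 0.11, edgeR unadjusted p = 0.0139, adjusted p = 0.823). With all 15 libraries neither row had an unadjusted p under 0.05. Separation without overlap was found for 0 members, beside 0.722% of all genes, and the 42 log2 fold changes ran from -0.48 to 0.31 (median -0.05, all genes -0.00).

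**Figure D2:**
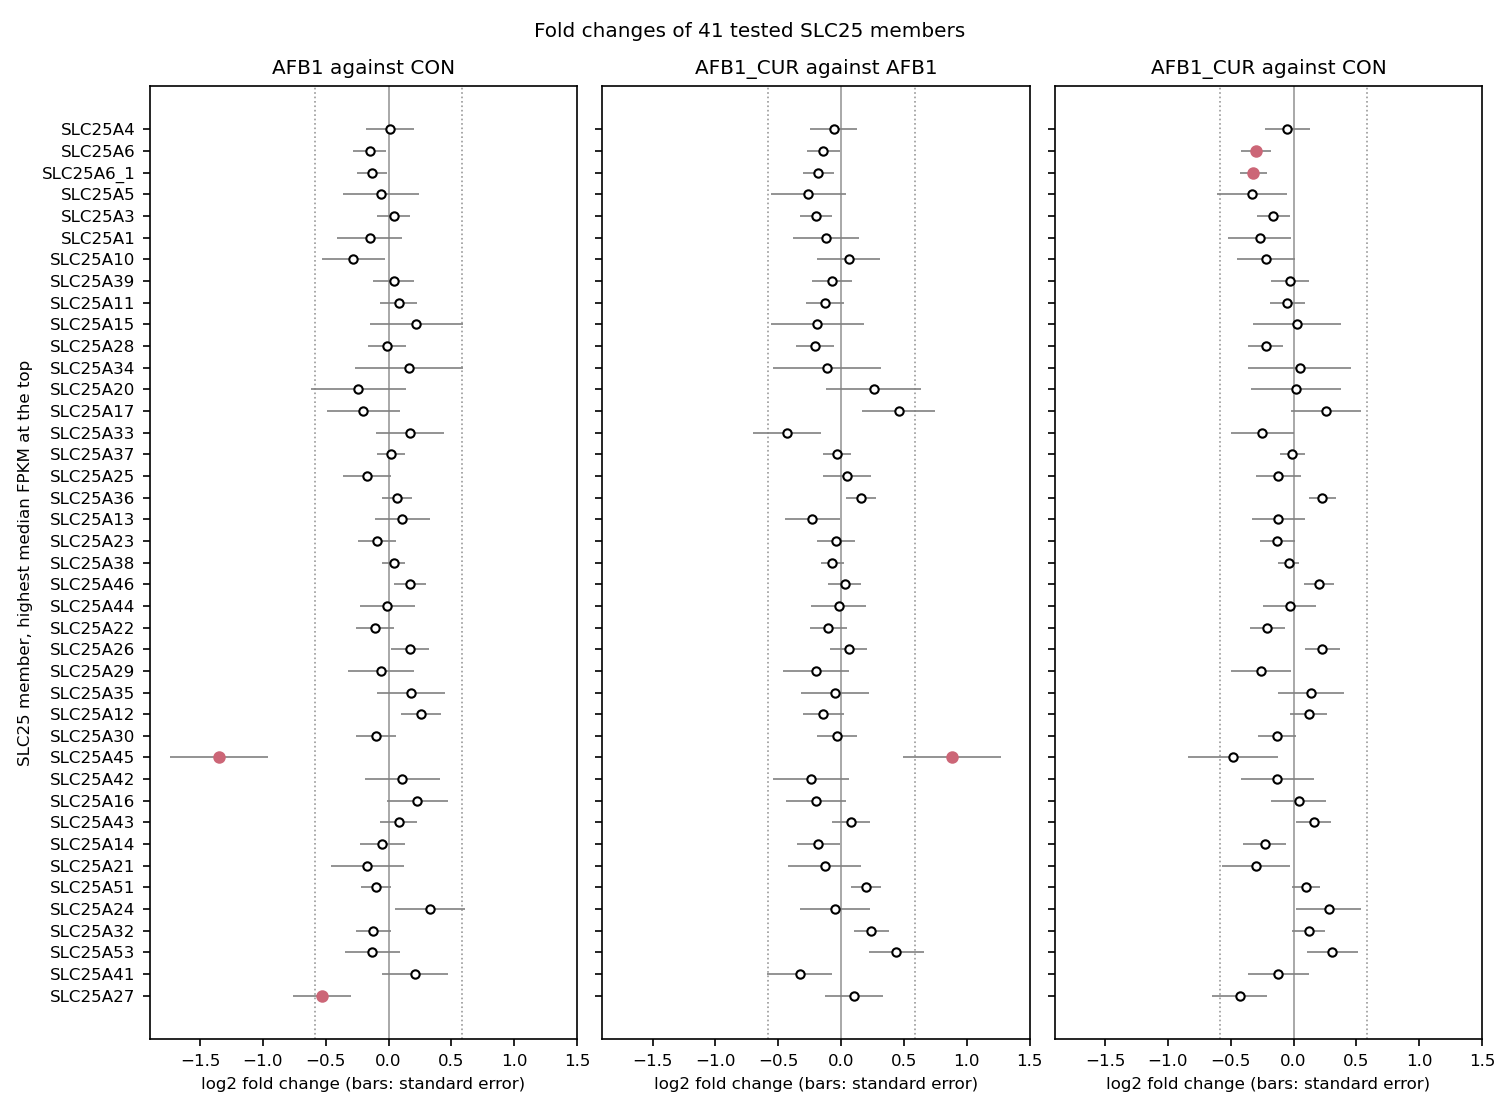
log2 fold changes (points) with standard errors (bars) of 41 of the 42 tested members in the 3 comparisons, 14 libraries; filled points have an unadjusted p under 0.05 and dotted lines mark 1.5-fold. SLC25A45 lies past the line in AFB1 against CON (-1.35) and in AFB1_CUR against AFB1 (0.88), and the other members shown lie between the lines.

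**Figure D3:**
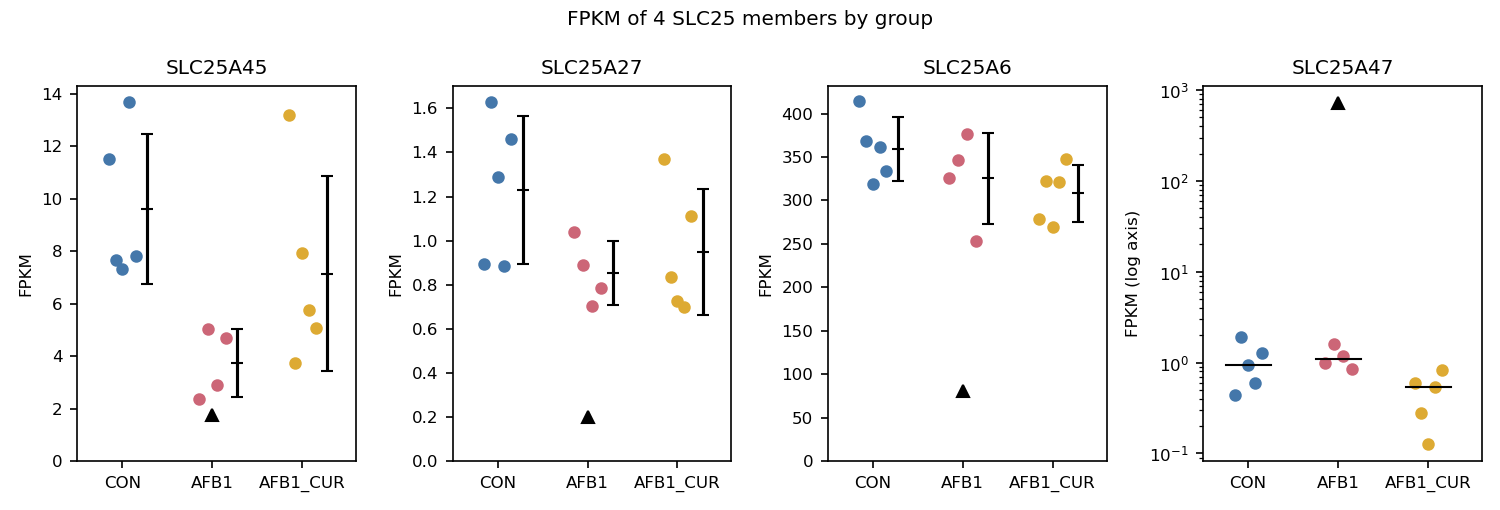
FPKM of SLC25A45, SLC25A27, SLC25A6 and SLC25A47 (log axis for the last) in each library; black bars are mean ± SD without AFB1 replicate 1, or the median for SLC25A47, and the triangle is that library. For SLC25A45 the 4 AFB1 points reach 5.02 FPKM and the CON points start at 7.32 FPKM.

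SLC25A40, SLC25A47 and SLC25A48 were under the level filter and were tested in a fit of every gene with at least 1 read. SLC25A47, a carrier known from hepatocytes (chromosome 18, 62875104 to 62880902, plus strand), was lower in AFB1_CUR than in AFB1 there. It was at 0.441, 1.92, 0.947, 0.596 and 1.29 FPKM in CON, at 0.988, 1.6, 1.19 and 0.859 FPKM in AFB1 replicates 2 to 5 and at 0.598, 0.282, 0.127, 0.539 and 0.831 FPKM in AFB1_CUR. The AFB1_CUR libraries were all below the 4 AFB1 libraries, by a small margin, and overlapped CON. These levels rest on few reads, 13 to 208 per library.

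In that fit the log2 fold change of SLC25A47 was -1.32 (SE 0.50, edgeR unadjusted p = 0.0183, adjusted p = 1) against AFB1 and -1.15 (SE 0.47, edgeR unadjusted p = 0.0295, adjusted p = 0.725) against CON. Called lower were 1.43% and 1.33% of the 25449 genes of the fit. The exact permutation test gave p = 0.0159 and p = 0.0952. The second p is not below 0.05 and the first is the separation itself, which 0.64% of the genes of that fit also had between these groups. The counts of ALB, the hepatocyte transcript for albumin, were 537, 626, 190, 97 and 88 in CON, 2846, 1656, 26 and 6 in AFB1 replicates 2 to 5 and 157, 102, 0, 42 and 152 in AFB1_CUR, and the part of hepatocyte transcripts in the SLC25A47 values was not tested. SLC25A48, linked to choline transport, was at 1.15 FPKM in AFB1 replicate 2 and at 0.0196 to 0.31 FPKM in the other 13 libraries. SLC25A40 had log2 fold changes of 0.07 to 0.18 in the 3 comparisons.

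The family had a different make-up in the library labelled AFB1 replicate 1. Its sum was 2130 FPKM, within the range of the other 14, but the ADP/ATP carriers made up 495 FPKM of it, against 958 to 1370 FPKM elsewhere. SLC25A47 alone was 33.8% of the family sum, against 0.00565% to 0.0901%. There is 1 such library, so the difference has no replicate check and no test. A member was counted as higher or lower when it lay outside the range of the other 14 and over 2-fold from their median. By this rule 9 of 45 members (20%) were higher and 16 (35.6%) lower, where 8.78% and 37.2% of the 15298 genes with at least 1 FPKM in any library were.

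The scale bears on these counts. Hepatocyte transcripts took a large share of that library, and the median log2 fold of members was -0.71, beside -0.72 for all genes. After TMM scaling, which sets the bulk of genes level, the medians were 0.04 and 0.01. On that scale 12 members (26.7%) were higher and 10 (22.2%) lower, beside 15.8% and 20.9% of genes. The 9 that were higher on the FPKM scale were higher on both, 10 of the 16 lower ones were lower on both, and 10 members changed the sign of their fold.

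SLC25A47 was at 721 FPKM in that library, from 69482 reads, and at 0.127 to 1.92 FPKM in the others, 853 times their median. Its neighbour SLC25A29, a carrier of basic amino acids that starts 12846 bases away on the opposite strand, was at 30.6 FPKM against 5.21 to 13.3 FPKM. SLC25A48 was at 1.88 FPKM, against a median of 0.054 FPKM. SLC25A22, the glutamate carrier GC1, was at 44 FPKM (7.1 to 11.1 elsewhere) and SLC25A13 at 54.9 FPKM (11 to 23). SLC25A20 was at 84.1 FPKM (14.5 to 54.5) and the iron importer SLC25A28 at 108 FPKM (31.1 to 57.1). SLC25A30, named kidney mitochondrial carrier protein 1, was higher here than in any other library, 23.1 FPKM against 5.82 to 10.6 FPKM. SLC25A40 completed the 9, at 1.41 FPKM against 0.25 to 0.52 FPKM, and it reached 1 FPKM only in that library.

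The isoform SLC25A12 was among the lower members. It was at 1.04 FPKM, below 4.84 to 9.13 FPKM, so the ratio of SLC25A13 to SLC25A12 was 52.9. SLC25A37 met neither rule, and the ratio of SLC25A28 to SLC25A37 was 10, and that of SLC25A4 to SLC25A5 was 7.43. All 3 ratios lay above those of every other library, and being within 1 library they do not depend on the scale. Among the ADP/ATP carriers, SLC25A5 was at 41.5 FPKM (137 to 354 elsewhere) and SLC25A6 at 80.2 FPKM (253 to 415), whereas SLC25A4 stayed within the range at 308 FPKM. The pyrimidine nucleotide carriers SLC25A36 (2.49 FPKM, elsewhere 13.3 to 24.9) and SLC25A33 (5.75 FPKM, elsewhere 12.5 to 31.8) were lower, as were the ATP-Mg/phosphate carriers SLC25A24 (0.358 FPKM, elsewhere 1.21 to 4.04) and SLC25A23 (3.01 FPKM, elsewhere 10.4 to 15.3). SLC25A35, with no assigned substrate, was at 1.44 FPKM (5.53 to 12.6). SLC25A15, the ornithine carrier, was at 9.81 FPKM (18.2 to 66.4), lower on the FPKM scale but not after TMM scaling.

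By role on the FPKM scale, where 8.78% of genes were higher and 37.2% lower, 6 of the 9 carriers of phosphate and adenine nucleotides were lower and 0 higher (the 6 include both SLC25A6 rows, which are not separate evidence), and 4 of the 9 carriers of cofactors and other nucleotides were lower and 0 higher. Of the 11 carriers of carboxylates and amino acids 3 were higher and 2 lower, and of the 4 of iron and glutathione 2 were higher and 0 lower. After TMM scaling, where 15.8% of genes were higher and 20.9% lower, 5 of the 9 carriers of phosphate and adenine nucleotides were lower and 1 higher. On that scale 2 of the 9 carriers of cofactors and other nucleotides were lower and 2 higher, 3 of the 11 carriers of carboxylates and amino acids were higher and 1 lower, and 2 of the 4 of iron and glutathione were higher.

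**Figure D4:**
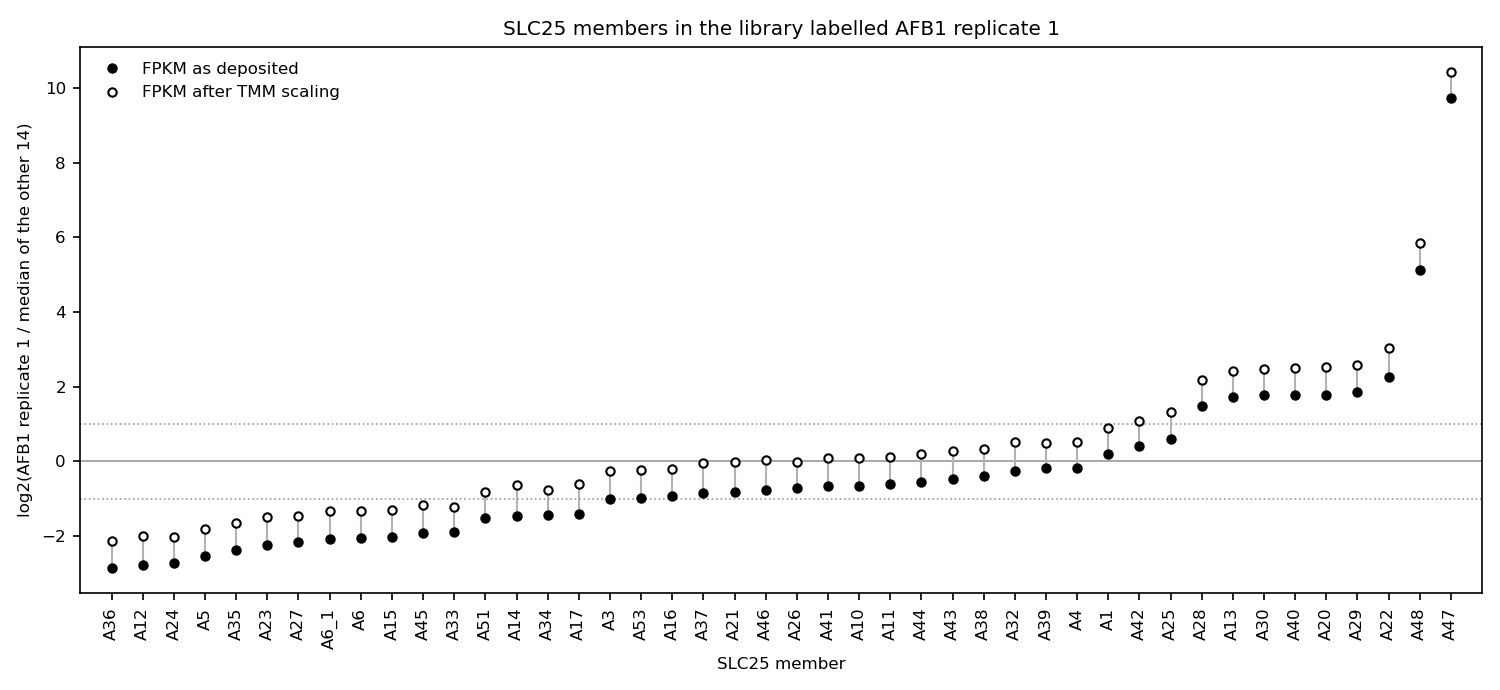
log2 ratio of 44 of the 45 members in the library labelled AFB1 replicate 1 to the median of the other 14, for FPKM as deposited (filled) and after TMM scaling (open); dotted lines mark 2-fold. SLC25A47 and SLC25A48 lie at 9.74 and 5.13 as deposited, SLC25A36 is lowest at -2.86, and TMM scaling lifts every member shown.

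The partner enzymes of the carriers and the other mitochondrial transport genes were examined as lists. Of 30 partner enzymes 27 were tested, and 0 were called in any of the 3 comparisons. Of 26 other mitochondrial transport genes 23 were tested, and 0 were called or had an unadjusted p under 0.05. Among the 30 partner enzymes, 10 were higher and 8 lower in the library with the high hepatocyte marker sum, beside 8.78% and 37.2% of all genes. The urea cycle enzymes CPS1 (412 FPKM, elsewhere 0 to 0.373), ARG1 (231 FPKM, elsewhere 0.0323 to 0.36) and OTC (17.6 FPKM, elsewhere 0 to 0.0331) were among the 10, and CPS1 and ARG1 are also in the hepatocyte marker list that set the library apart. The 10 also held ALAS1, the first enzyme of heme synthesis (237 FPKM, elsewhere 20.9 to 30.4). Of the other transport genes with a value, 0 of 23 were higher and 5 lower there (MTCH1, SFXN2, SFXN3, SMDT1 and SLC8B1).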

How the data were processed

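The authors deposited, for 25592 genes in 15 libraries labelled kidney, a count of reads and an FPKM value per gene. The submitters' processing notes name cutadapt 1.9, HISAT2 2.2.1, StringTie 2.1.6, DESeq2 and edgeR. No source used here states the counting tool, its strand setting or the genome build. The coordinates of 44 of the 45 members equal those of RefSeq for ARS-UI_Ramb_v3.0, SLC25A6_1 being the exception, and coordinates are printed as deposited.

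Libraries were grouped by title. The deposited counts were tested with edgeR 4.0.16 (quasi-likelihood, TMM, R 4.3.3) for 13162 genes with at least 1 FPKM in at least 5 of 14 libraries. All 3 groups shared 1 fit without the library labelled AFB1 replicate 1. Calls needed p under 0.05 before adjustment and more than a 1.5-fold change, and Benjamini-Hochberg adjusted p-values over all genes are given beside them. Alternatives used DESeq2 1.42.0, limma 3.58.1 on log2(FPKM + 1) and log2(FPKM + 0.1), and other filters, scalings and libraries.

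Members with a p under 0.05, the 10 most abundant, those most changed in AFB1 replicate 1, isoform pairs, and the ends of the order were named, and the members at the ends of AFB1_CUR against AFB1 (SLC25A33 and SLC25A17), SLC25A53 and SLC25A20 were added after their values were seen. The single values of 1 member and 1 partner enzyme are not reported here, although both count in the totals of the fits. The family and the lists were chosen with earlier results of these data known, although the rule for its members used names alone. Labels do not say whether the replicate numbers pair animals across groups.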

Additional observations from a re-analysis of the deposited data

Results flagged for a closer look

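Within groups of 4 or 5 libraries, 15 of 176 sets of FPKM values held a library set far from the rest of its group by Dixon's criterion. Chance meets it in about 1 of 20 separate sets of normally distributed values. The AFB1 group was taken both with and without replicate 1, so its sets overlap and that rate is a rough guide here. The library labelled AFB1 replicate 1 accounted for 7 of them. In FPKM it was high for SLC25A47 (721, others of the group 0.859 to 1.6), SLC25A22 (44, others 7.28 to 10.1), SLC25A13 (54.9, others 13.7 to 23), SLC25A30 (23.1, others 6.01 to 8.52) and SLC25A40 (1.41, others 0.282 to 0.491). It was low for SLC25A3 (115, others 237 to 248) and SLC25A23 (3.01, others 11.9 to 14.2).

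The other 8 were spread over 6 libraries. Among AFB1 replicates 2 to 5, replicate 2 was high for SLC25A48 (1.15 FPKM, others 0.0196 to 0.055) and low for SLC25A15 (32.9 FPKM, others 46.3 to 48.8). In the same set replicate 5 was high for SLC25A35 (12.3 FPKM, others 6.85 to 7.31). AFB1 replicate 1, left out of these sets, was at 1.88, 9.81 and 1.44 FPKM for SLC25A48, SLC25A15 and SLC25A35. CON replicate 4 was high for SLC25A20 (54.5 FPKM, others 15.5 to 26.2). CON replicate 5 was high for SLC25A51 (2.99 FPKM, others 2.48 to 2.62) and low for SLC25A14 (2.43 FPKM, others 3.39 to 3.75). AFB1_CUR replicate 3 was high for SLC25A34 (71.7 FPKM, others 22 to 34.7) and AFB1_CUR replicate 5 for SLC25A48 (0.31 FPKM, others 0.024 to 0.093).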

How the results depend on the processing

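Members called in AFB1 against CON (1 in the 14-library fit) numbered 3 with all 15 libraries and 1 to 2 when each library was left out in turn. SLC25A27 was the second one called, without CON replicate 1 (-0.62), CON replicate 4 (-0.61) or AFB1 replicate 2 (-0.59). In AFB1_CUR against AFB1 (1 called) the number was 6 with all 15 libraries, 2 with no filter, 0 with the replicate number as a block, 0 with the compared groups alone, 0 to 2 when each library was left out, and 3 without AFB1 replicate 2 and AFB1_CUR replicate 2, a choice made after seeing the data. With the block, 72 of 13162 genes were called higher and 78 lower in this comparison. With the compared groups alone these were 49 and 61 of 12739 genes. Without AFB1 replicate 2 and AFB1_CUR replicate 2 they were 115 and 92 of 12920. The block left SLC25A45 at 0.59 (edgeR unadjusted p = 0.0767). Numbers do not pair animals in the labels, and same-number libraries correlated at -0.309 to 0.599 in their deviations. In AFB1_CUR against CON (0 called) it was 1 with no filter, 1 with the replicate block (SLC25A45, -0.62) and 0 to 2 when each library was left out; without AFB1_CUR replicate 1 SLC25A45 (-0.85) and SLC25A27 (-0.63) were called. In AFB1_CUR against AFB1, the direction turned for SLC25A27 without AFB1_CUR replicate 1 (-0.11, leave-one-out fits up to 0.18) and for SLC25A6 (0.04) and SLC25A6_1 (0.01) with all 15 libraries. Members lower in AFB1 replicate 1 (16) numbered 10 on the TMM scale and 26 with no fold threshold. The cause of these shifts was not tested.

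Over all genes, AFB1 against CON called 86 higher and 146 lower, and with all 15 libraries 506 and 133. AFB1_CUR against AFB1 called 54 and 69, and with all 15 libraries 78 and 447. With no filter these were 445 and 422, and 344 and 363. AFB1_CUR against CON called 138 and 76, with all 15 libraries 99 and 32, and with no filter 589 and 339. With limma on log2(FPKM + 1) the counts were 39 and 66, 34 and 47, and 49 and 31. Leaving out 1 library moved these counts most to 213 and 241 (AFB1 against CON without AFB1 replicate 5), 148 and 113 (AFB1_CUR against AFB1 without AFB1 replicate 2) and 48 and 67 (AFB1_CUR against CON without AFB1_CUR replicate 2). SLC25A47 and SLC25A48 rest on few reads in kidney, and no adjusted p of a member passed 0.05 in any fit.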
